A study of Mus musculus with 12 samples.

Results

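Neutrophils and macrophages are the phagocytes that a tissue recruits or keeps on hand when its barrier is injured. Neutrophils arrive from the blood with granules of enzymes made in the bone marrow, whereas macrophages of the healthy gut wall live in the lamina propria, take up dying cells and bacteria, and depend on the growth factor receptor Csf1r. Markers of both cells were followed in the jejunum of mice with obstructed bile flow. Of the 19938 genes that the array names singly, 10 were taken from a list of textbook markers, 5 of neutrophils (S100a8, S100a9, Mpo, Elane and Csf3r) and 5 of macrophages (Adgre1, Csf1r, Cd68, Lyz2 and Cd163). Each of the 10 was represented by exactly 1 probe set with a single gene symbol.

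The samples were jejunum of male mice aged 8 weeks, taken 7 days after surgery. There were 4 groups of 3 arrays, namely A/J mice after common bile duct ligation (CBDL), A/J mice after a sham operation, C57BL/6J (B6) mice after CBDL and B6 mice after a sham operation. CBDL closes the duct that carries bile to the gut, and the labels name no engineered allele in either inbred strain. The comparison asked whether the strains differ in how their intestine responds to cholestasis. The labels do not say that each array is a separate animal, so p-values measure only the spread between these samples.

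Signals are log2 values, in which a difference of 1 is a 2-fold change. A difference was called when limma's test, adjusted by the Benjamini-Hochberg method over all 35556 probe sets, gave an adjusted p under 0.05. Whole tissue was measured, so fewer cells of a type and less RNA per cell cannot be told apart. The enterocyte genes averaged 12.3 to 12.6 on every array, so defining markers of the labelled tissue were present. The array of A/J sham replicate 1 correlated least with the remaining 11 (mean r 0.970, where every other array reached 0.979 or more). A/J CBDL replicate 1 stood apart in some inflammatory genes, such as Cxcl5, at 5.92 there and at most 3.66 elsewhere. The 13 hepatocyte genes measured averaged 9.13 to 9.69 on the A/J CBDL arrays and 5.53 to 6.16 on the A/J sham arrays. In B6 mice they averaged 9.25 to 9.50 on the CBDL arrays, against 7.06, 7.87 and 9.10 on sham replicates 1, 2 and 3. Their part in the results for other genes was not tested.

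The neutrophil markers were dim throughout. S100a8 was brighter than only 20.4% of all probe sets and Csf3r than 28.6%, and the brightest neutrophil marker, Elane, lay above 43.2%. The macrophage markers spanned a wider range, as Cd163 was brighter than 43.2% of probe sets and Lyz2 than 94.5%. A filter that removed the dimmest 30% of probe sets would have kept 8 of the 10 genes, without S100a8 and Csf3r.

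No marker of either cell passed the test in any of the 6 comparisons. In A/J mice 0 of 10 were called by limma after CBDL, where 0.818% of all probe sets were called (0.630% higher and 0.188% lower). At an unadjusted p under 0.05 there were 2 of 10, S100a9 and Cd163, against a background of 14.2%. In B6 mice 0 of 10 were called and 0 reached an unadjusted p under 0.05, against 0.0534% called (0.0366% higher and 0.0169% lower) and 7.64% at the unadjusted threshold. Averaged over both strains, 0 of 10 were called and 2 reached an unadjusted p under 0.05, Cd163 and Csf1r, against 1.74% called (1.12% higher and 0.616% lower) and 14.1% unadjusted. The 2 in A/J mice and the 2 over both strains are each a share of the list near the background. The same backgrounds apply to the counts of other gene lists in these comparisons.

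**Figure D1:**
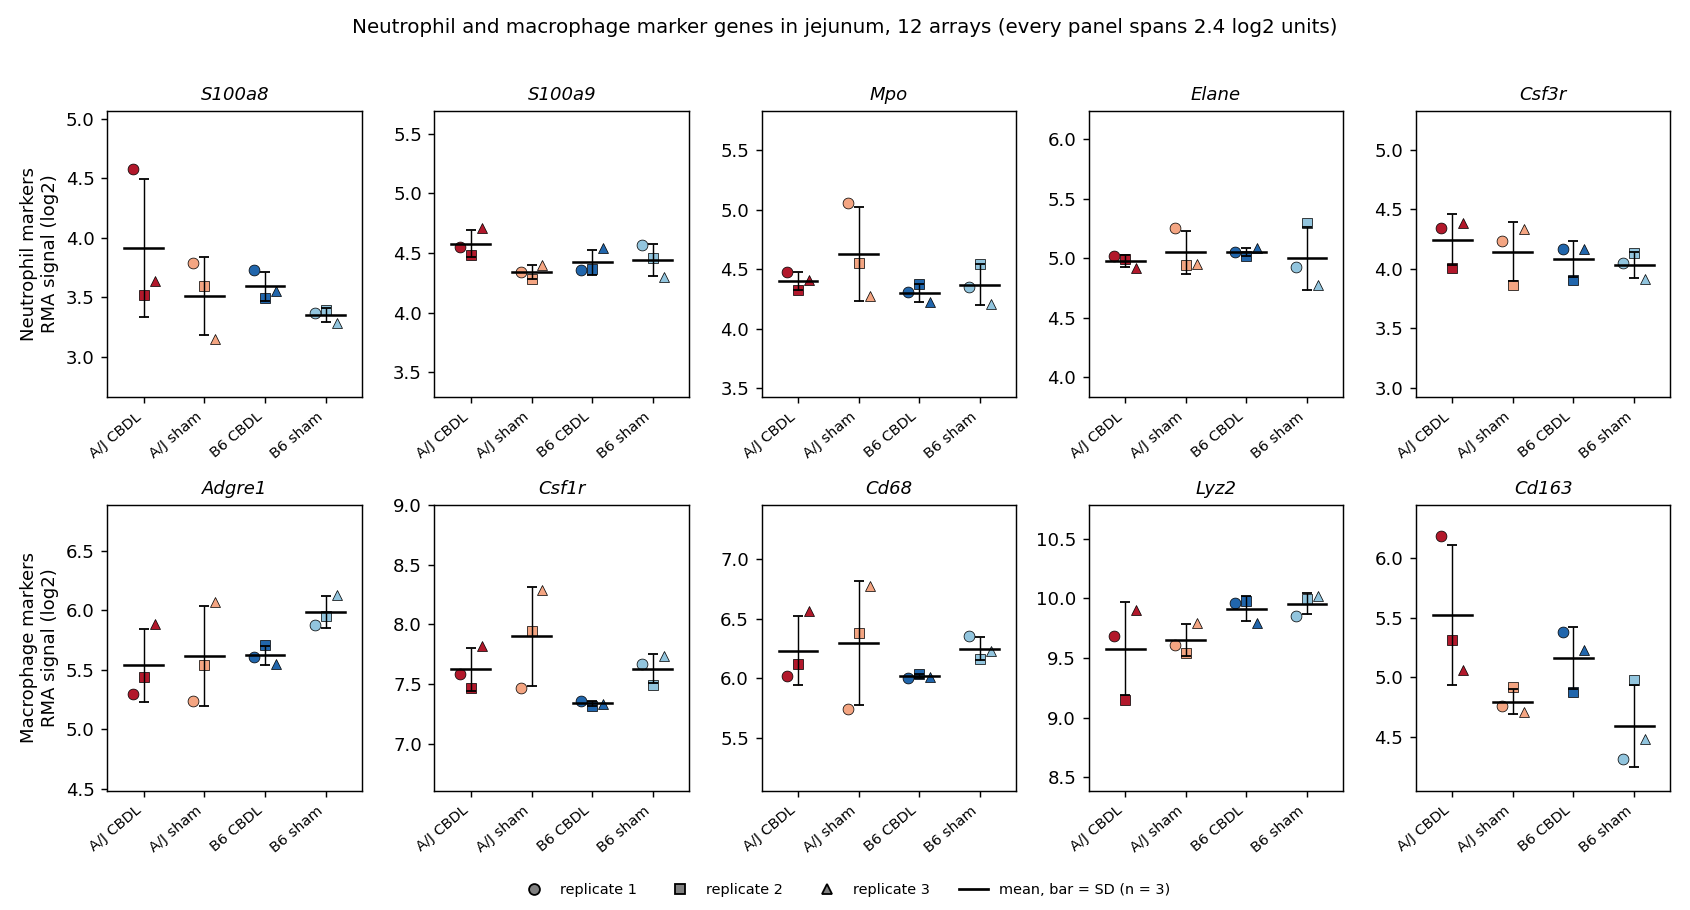
Log2 signal of the 5 neutrophil markers (upper row) and the 5 macrophage markers (lower row) on each of the 12 arrays, by group; symbols give the replicate number, lines the group mean and bars the SD (n = 3). Cd163 sits between 5.06 and 6.18 in A/J CBDL and between 4.71 and 4.91 in A/J sham, while Mpo and Csf3r overlap between all groups compared.

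S100a8 and S100a9 encode the 2 subunits of calprotectin, the calcium- and metal-binding protein that fills the neutrophil cytosol. S100a8 had a signal of 4.58, 3.52 and 3.64 in A/J CBDL, against 3.79, 3.60 and 3.15 in A/J sham. The A/J difference was 0.40 (standard error 0.25, adjusted p = 0.503, limma), and it rested on A/J CBDL replicate 1, since without that array it was 0.07. In B6 mice S100a8 had 3.73, 3.50 and 3.55 in CBDL, against 3.37, 3.40 and 3.29 in sham. The 3 B6 CBDL arrays all lay above the 3 B6 sham arrays, but the difference of 0.24 (standard error 0.25) had an adjusted p of 0.925.

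S100a9 did not share that pattern. It had 4.55, 4.48 and 4.71 in A/J CBDL, against 4.34, 4.28 and 4.40 in A/J sham, so the groups did not overlap. The difference was 0.24 (standard error 0.10, adjusted p = 0.314). In B6 mice the values were 4.35, 4.37 and 4.54 in CBDL and 4.57, 4.46 and 4.30 in sham, with a difference of -0.02 (standard error 0.10, adjusted p = 0.988). After removal of each group's mean, S100a8 and S100a9 had a Pearson r of -0.15 over the 12 arrays, although their products form 1 complex. Both probe sets were dim, brighter than 20.4% and 33.6% of all probe sets, which limits this value.

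Mpo encodes myeloperoxidase, which makes hypochlorous acid in the phagosome, and Elane encodes neutrophil elastase, a serine protease stored in the same primary granules. Both genes are transcribed mainly in marrow precursors, so that mature neutrophils in tissue hold little of their mRNA. Mpo had 4.48, 4.33 and 4.41 in A/J CBDL, against 5.05, 4.55 and 4.28 in A/J sham. The highest Mpo value of all 12 arrays was that of A/J sham replicate 1, and without that array the A/J difference was -0.01, against -0.22 with it (standard error 0.17, adjusted p = 0.592). In B6 mice Mpo had 4.31, 4.38 and 4.23 in CBDL and 4.35, 4.55 and 4.21 in sham (difference -0.07, standard error 0.17, adjusted p = 0.975).

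Elane was the flattest of the 10 genes, with group means that spanned 0.08. It had 5.02, 4.99 and 4.92 in A/J CBDL and 5.25, 4.94 and 4.95 in A/J sham. The B6 values were 5.05, 5.02 and 5.08 in CBDL and 4.92, 5.29 and 4.78 in sham. CBDL minus sham was -0.07 in A/J and 0.05 in B6 mice (standard error 0.13 each, adjusted p = 0.848 and 0.974). Mpo and Elane did vary together within groups, with r = 0.75 over the 12 arrays after removal of group means, and 0.64 without A/J sham replicate 1. Points of such a correlation share the array, its labelling and its normalization.

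Csf3r encodes the receptor of G-CSF, the cytokine that drives neutrophil output. It had 4.34, 4.01 and 4.39 in A/J CBDL, against 4.24, 3.86 and 4.34 in A/J sham, and 4.17, 3.91 and 4.16 in B6 CBDL, against 4.05, 4.13 and 3.92 in B6 sham. All neighbouring groups overlapped. The CBDL minus sham value was 0.10 for A/J and 0.05 for B6 mice (standard error 0.15 each, adjusted p = 0.808 and 0.981). Its ligand gene Csf3 was not called either, with differences of 0.21 in the A/J and 0.10 in the B6 strain (adjusted p = 0.630 and 0.965).

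The interval of each estimate shows what these arrays could have missed. For the 5 neutrophil markers averaged over both strains, the 95% intervals ran from -0.41 at the lowest bound to 0.71 at the highest for S100a8. A 2-fold change of signal in the strain average lay outside all 5 intervals. That holds for signal only, because these markers were dim and how far signal follows transcript there was not tested.

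**Figure D2:**
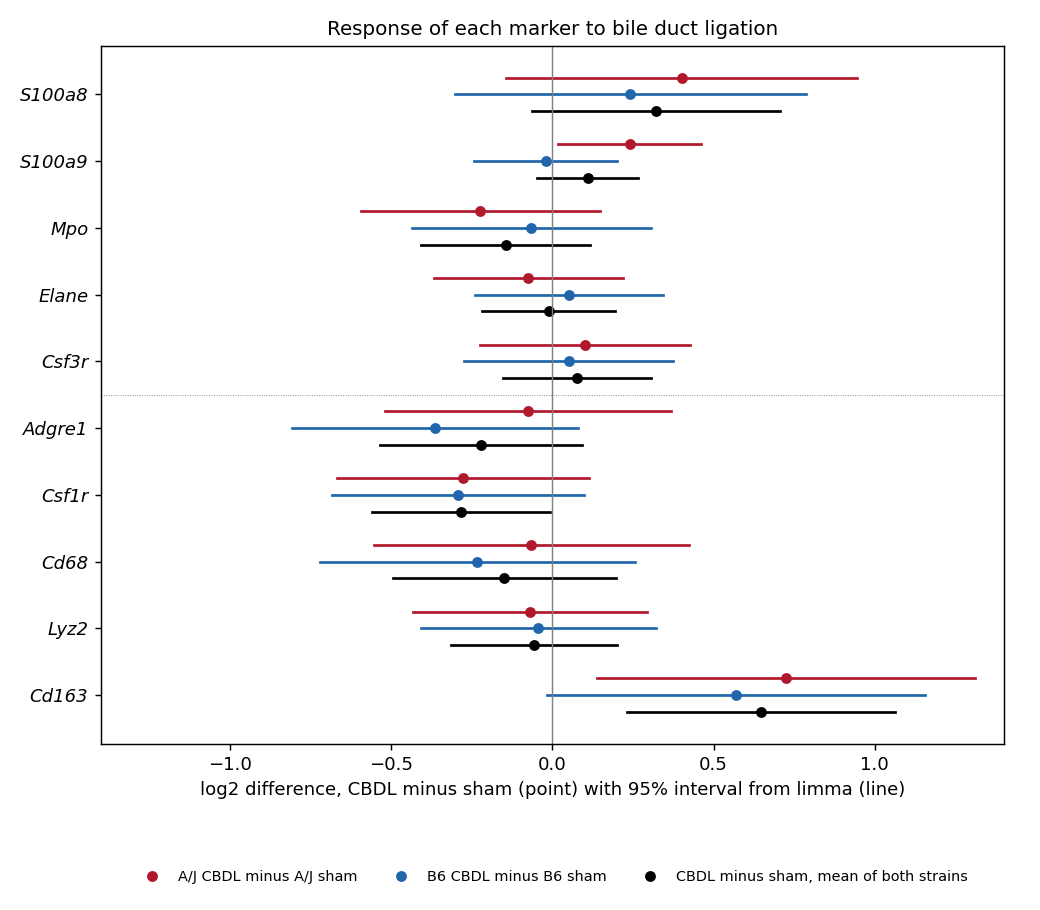
CBDL minus sham as a log2 difference for each of the 10 markers, with 95% intervals from limma, in A/J mice, in B6 mice and as the mean of both strains. Over both strains the intervals of Cd163 (0.23 to 1.06) and Csf1r (-0.56 to -0.01) leave out 0 before adjustment, and the other 8 include it.

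Csf1r encodes the receptor for the macrophage growth factors CSF1 and IL-34. It had 7.58, 7.47 and 7.82 in A/J CBDL, against 7.46, 7.94 and 8.29 in A/J sham. The B6 values were 7.36, 7.32 and 7.34 in CBDL and 7.67, 7.49 and 7.73 in sham, and here every CBDL array lay below every sham array. CBDL minus sham was -0.28 for A/J (standard error 0.18, adjusted p = 0.521) and -0.29 in B6 mice (standard error 0.18, adjusted p = 0.798). Over both strains it was -0.28 (standard error 0.13, unadjusted p = 0.0445, adjusted p = 0.338). Without A/J sham replicate 1, the lowest sham array for this gene, the A/J difference was -0.49 (adjusted p = 0.145) and that over both strains -0.39 (adjusted p = 0.0655). Over all alternative fits the A/J difference ran from -0.49 to -0.08 (limma, adjusted p 0.145 to 0.825). The difference over both strains ran from -0.39 to -0.19 (limma, adjusted p 0.0655 to 0.514). The ligand genes Csf1 (differences 0.12 in A/J and -0.08 in B6 mice) and Il34 (0.20 and -0.12) were not called.

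Adgre1 encodes the surface protein by which mouse macrophages are usually stained. It had 5.29, 5.44 and 5.88 in A/J CBDL and 5.24, 5.54 and 6.06 in A/J sham, which overlap almost fully. In B6 mice it had 5.60, 5.71 and 5.55 in CBDL, against 5.87, 5.95 and 6.13 in sham, with no overlap. The B6 difference was -0.36 (standard error 0.20, adjusted p = 0.754) and the A/J difference -0.08 (standard error 0.20, adjusted p = 0.902).

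Cd68 encodes a glycoprotein of macrophage endosomes and lysosomes. Its values were 6.02, 6.12 and 6.57 in A/J CBDL and 5.74, 6.39 and 6.77 in A/J sham, and 6.001, 6.04 and 6.02 in B6 CBDL, against 6.36, 6.16 and 6.23 in B6 sham. Again the B6 CBDL arrays all lay below the B6 sham arrays. The differences were -0.07 in A/J and -0.23 in B6 mice (standard error 0.22 each, adjusted p = 0.927 and 0.916).

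In B6 mice, then, Adgre1, Csf1r and Cd68 were each lower on all 3 CBDL arrays, and with S100a8 in the other direction 4 of the 10 markers did not overlap, where 15.5% of all probe sets did not. In A/J mice 2 of 10 did not overlap (S100a9 and Cd163, both above sham), against 17.1% of all probe sets. Other leukocyte genes showed the same arrangement in B6 mice. All 8 pan-leukocyte genes were lower on every B6 CBDL array, with a median difference of -0.51, and averaged 6.83 to 7.04 on the B6 CBDL arrays against 7.30 to 7.43 on the B6 sham arrays. None of the 8 was called and 6 reached an unadjusted p under 0.05, which 7.64% of all probe sets reached. The median over all probe sets was near 0 (-0.00248). Of 12 T and NK cell genes, all 12 had a negative B6 difference (median -0.62, 0 called, 8 at an unadjusted p under 0.05). The part of either cell group in the macrophage values was not tested.

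**Figure D3:**
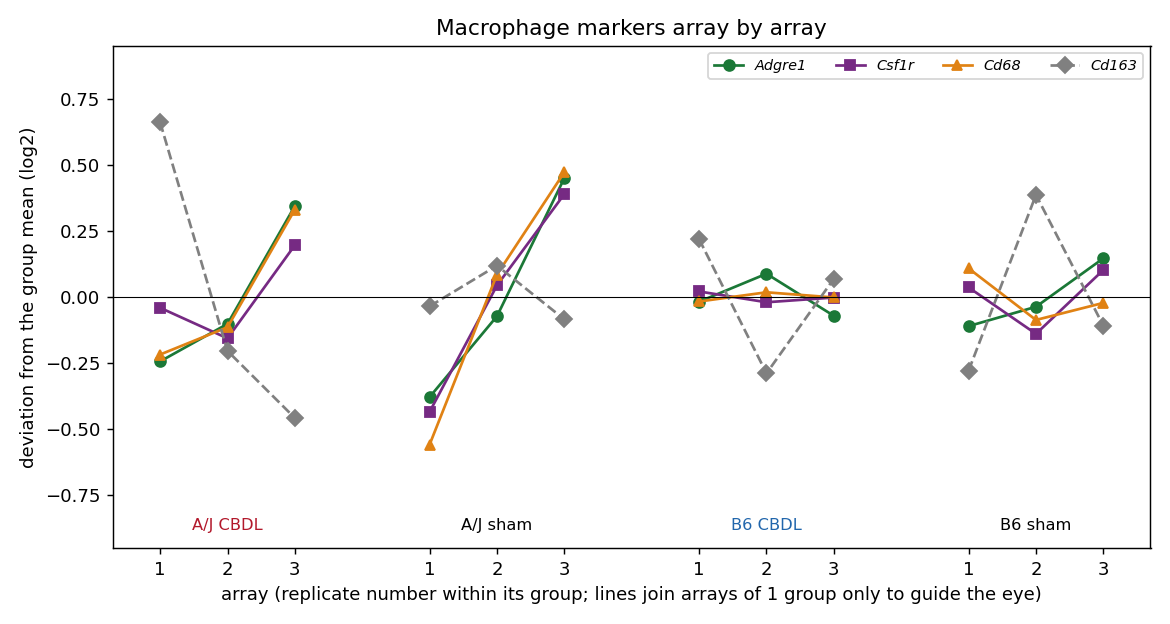
Deviation of each array from its group mean for Adgre1, Csf1r, Cd68 and Cd163 (log2), by group and replicate. Adgre1, Csf1r and Cd68 run together, lowest on A/J sham replicate 1 and highest on A/J sham replicate 3, while Cd163 takes its own course.

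Array by array, 3 macrophage markers varied together. After removal of group means, Csf1r and Cd68 had r = 0.94, Adgre1 and Cd68 r = 0.89 and Adgre1 and Csf1r r = 0.87 over the 12 arrays. Without A/J sham replicate 1 they were 0.84, 0.86 and 0.82. Most of this spread was in A/J mice, where Cd68 had an SD of 0.29 in CBDL and 0.52 in sham, against 0.02 in B6 CBDL and 0.10 in B6 sham (n = 3 each). Cd163 had r of -0.46, -0.24 and -0.40 with Adgre1, Csf1r and Cd68. Mpo ran against Csf1r (r = -0.86), and without A/J sham replicate 1 the value was -0.59.

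The promoters of genes that varied together, Mpo with Elane and Cd68 with its 2 partners, are shown with that of Cd163, which did not vary with them. They were the 250 bases before the start site on GRCm38.p6 in RefSeq, 5′ to 3′ on the strand of the gene. A promoter entry was found for 8 of the 10 genes, and Adgre1 and Csf1r had none. Capitals mark GAGGAA, the core letters bound by PU.1, a transcription factor of the myeloid lineage, searched on both strands as the only motif.
Mpo, chr11:87793534-87793783, plus strand: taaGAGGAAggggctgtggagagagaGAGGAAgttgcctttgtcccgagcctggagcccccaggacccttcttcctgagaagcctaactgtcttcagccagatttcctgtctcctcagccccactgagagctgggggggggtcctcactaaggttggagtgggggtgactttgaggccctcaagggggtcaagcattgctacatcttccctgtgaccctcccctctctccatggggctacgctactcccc
Elane, chr10:79886062-79886311, plus strand: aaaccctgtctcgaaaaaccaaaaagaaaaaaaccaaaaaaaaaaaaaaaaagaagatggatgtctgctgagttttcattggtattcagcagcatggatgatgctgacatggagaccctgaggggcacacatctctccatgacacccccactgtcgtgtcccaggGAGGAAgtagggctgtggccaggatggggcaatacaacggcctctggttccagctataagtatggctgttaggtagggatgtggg
Cd68, chr11:69666171-69666420, minus strand: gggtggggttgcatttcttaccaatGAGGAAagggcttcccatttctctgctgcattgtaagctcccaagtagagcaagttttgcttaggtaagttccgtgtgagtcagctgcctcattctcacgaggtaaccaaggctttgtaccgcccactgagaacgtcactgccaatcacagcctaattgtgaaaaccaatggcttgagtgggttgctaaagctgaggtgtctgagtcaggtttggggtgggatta
Cd163, chr6:124304401-124304650, plus strand: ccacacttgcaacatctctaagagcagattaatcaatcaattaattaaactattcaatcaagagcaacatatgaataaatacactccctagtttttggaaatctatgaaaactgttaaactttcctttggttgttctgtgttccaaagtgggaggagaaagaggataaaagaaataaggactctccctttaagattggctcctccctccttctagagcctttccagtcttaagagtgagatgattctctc
Mpo held the letters at 2 places, Elane and Cd68 at 1 each, and Cd163 at none. Among the promoters not printed, S100a8 held them at 2 places and Csf3r at 1, and S100a9 and Lyz2 at none. In all, 5 of the 8 promoters held GAGGAA on either strand, where 23.25% of 32851 mouse promoters of the same length did. A match describes these letters and is not a measured binding site.

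Lyz2 encodes lysozyme M, made by macrophages and neutrophils. It had 9.69, 9.15 and 9.90 in A/J CBDL, against 9.61, 9.54 and 9.80 in A/J sham, and 9.96, 9.98 and 9.79 in B6 CBDL, against 9.85, 9.996 and 10.02 in B6 sham. CBDL minus sham was -0.07 in A/J and -0.04 in B6 mice (standard error 0.17 each, adjusted p = 0.890 and 0.985). Lyz2 is uncertain in this tissue, because its near-identical neighbour Lyz1, the lysozyme of Paneth cells, averaged 12.77 in A/J CBDL, 12.64 in A/J sham, 13.17 in B6 CBDL and 12.94 in B6 sham. How far its transcripts bind the Lyz2 probes was not tested.

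Cd163 encodes the scavenger receptor by which macrophages clear haptoglobin-hemoglobin complexes, and it showed the largest CBDL difference among the 10 genes. It had 6.18, 5.32 and 5.06 in A/J CBDL, against 4.76, 4.91 and 4.71 in A/J sham, with no overlap. In B6 mice it had 5.38, 4.87 and 5.23 in CBDL and 4.31, 4.98 and 4.48 in sham, where B6 sham replicate 2 lay above B6 CBDL replicate 2. The difference was 0.72 in A/J mice (1.65-fold, standard error 0.27, unadjusted p = 0.0200, adjusted p = 0.253) and 0.57 in B6 mice (1.49-fold, standard error 0.27, adjusted p = 0.668). Over both strains it was 0.65 (1.57-fold, standard error 0.19, 95% interval 0.23 to 1.06, unadjusted p = 0.00557, adjusted p = 0.136). It was not called. Without A/J CBDL replicate 1 the A/J difference was 0.39 (adjusted p = 0.463) and the average 0.48 (adjusted p = 0.149).

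The gene for the carrier that Cd163 binds, Hp, rose after CBDL in A/J mice. Hp, which encodes haptoglobin, the plasma carrier that delivers free hemoglobin to the receptor, had 9.91, 9.70 and 10.44 in A/J CBDL and 4.33, 5.17 and 5.27 in A/J sham. In B6 mice it had 9.95, 9.84 and 9.99 in CBDL, against 5.47, 7.76 and 8.34 in sham. The A/J rise of Hp was 5.09 (adjusted p = 0.00398, standard error 0.58) and that over both strains 3.91 (adjusted p = 0.00142), and the B6 difference was 2.74 (adjusted p = 0.145). Hmox1, the heme oxygenase that degrades the cargo, was not called, with a difference of 0.30 for A/J, 0.63 for B6 and 0.47 over both strains (adjusted p = 0.0619).

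Genes of Kupffer cells, the macrophages of the liver sinusoids, included 2 that rose in the average over both strains. Of the 5 measured, 0 were called in either strain (2 at an unadjusted p under 0.05 in A/J mice and 3 in B6 mice). Of all probe sets, 14.2% reached that threshold in A/J mice and 7.64% in B6 mice, and 1.74% were called over both strains. Cd5l, a secreted macrophage scavenger protein, had 4.69, 4.84 and 4.90 in A/J CBDL, against 4.31, 3.99 and 4.02 in A/J sham, and 5.01, 5.38 and 5.04 in B6 CBDL, against 4.25, 4.04 and 4.47 in B6 sham. It rose by 0.80 over both strains (standard error 0.10, adjusted p = 0.00396). Vsig4, a complement receptor of resident macrophages, rose by 0.82 (standard error 0.16, adjusted p = 0.0301), a call that ended when any of 8 single arrays was left out. Clec4f, a lectin that defines the Kupffer cell, had a difference of 0.36 (adjusted p = 0.113), while Timd4 (-0.05) and Marco (0.02) had values near 0. The 5 genes together averaged 4.56 to 4.84 in A/J CBDL and 4.31 to 4.41 in A/J sham, and 4.74 to 4.99 in B6 CBDL and 4.33 to 4.54 in B6 sham.

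Of the 13 hepatocyte genes 12 rose over both strains, where 1.74% of all probe sets were called. The part of hepatocyte RNA in the Cd163 and Kupffer values was not tested. On B6 sham replicate 3, where hepatocyte genes averaged 9.10 and so came close to the CBDL arrays, Cd163 was 4.48, between its other B6 sham values. On the same array Vsig4 was 4.02, against 3.42 and 3.38 on B6 sham replicates 1 and 2. Cd5l was 4.47 there and Clec4f 5.02, and the 5 Kupffer cell genes averaged 4.54, each the highest of the B6 sham arrays. Timd4 and Marco were not highest there. Timd4 lay between its other B6 sham values, and Marco had its lowest B6 sham value.

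**Figure D4:**
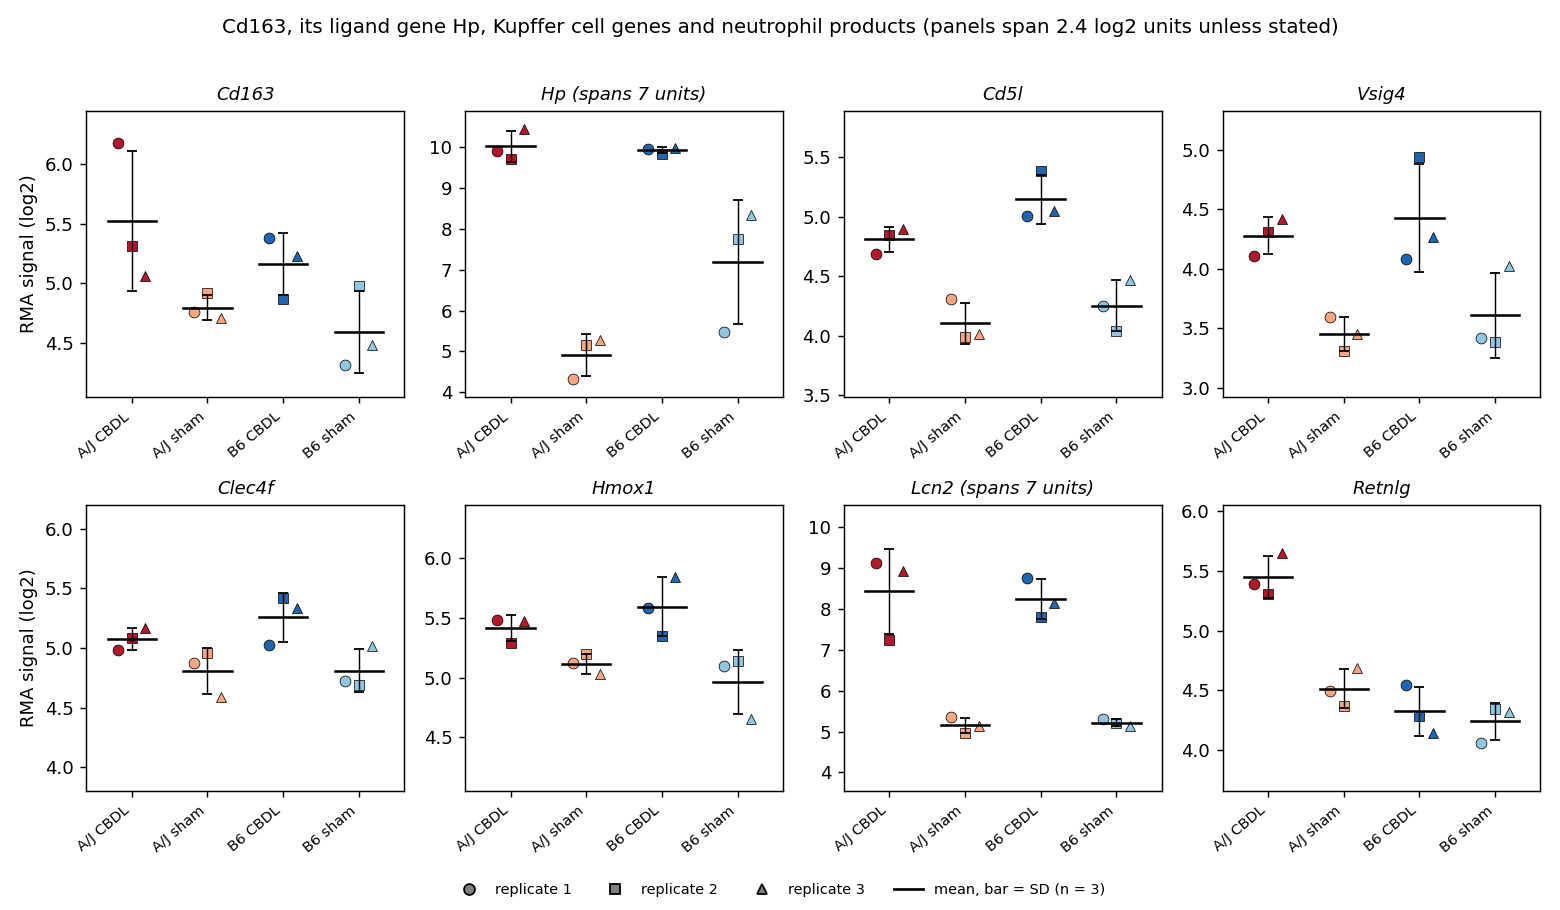
Log2 signal of Cd163, Hp, 3 Kupffer cell genes (Cd5l, Vsig4, Clec4f), Hmox1 and the neutrophil products Lcn2 and Retnlg on the 12 arrays; symbols give the replicate, lines the mean and bars the SD (n = 3). Hp and Lcn2, drawn over a wider axis, separate CBDL from sham, and Retnlg lies at 5.31 to 5.65 in A/J CBDL and at 4.69 or lower elsewhere.

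No marker was called between the strains. Between the sham groups, A/J against B6, 0 of 10 markers were called (0 at an unadjusted p under 0.05), where 1.87% of all probe sets were called and 15.4% reached the unadjusted threshold. One marker, Lyz2, did not overlap, being lower in A/J, against 18.7% of all probe sets. After CBDL, again 0 of 10 were called and 0 reached the unadjusted threshold, against 1.78% and 13.7% of all probe sets. Csf1r was higher and Elane lower on all A/J arrays, 2 of 10 where 21.7% of all probe sets did not overlap. For Elane the groups nearly met, at 5.0153 on the highest A/J CBDL array and 5.0159 on the lowest B6 CBDL array. The response to CBDL was not shown to differ between the strains for any marker. In the interaction 0 of 10 were called and 0 reached an unadjusted p under 0.05, against 0.0366% and 6.88% of all probe sets. The lowest adjusted p there was 0.783, for S100a9, with a difference of 0.26 (95% interval -0.05 to 0.57).

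The order of the group means, from low to high, differed from gene to gene. Cd163 and S100a8 shared the order B6 sham, A/J sham, B6 CBDL, A/J CBDL. Csf1r and Cd68 shared B6 CBDL, A/J CBDL, B6 sham, A/J sham, and Adgre1 and Lyz2 shared A/J CBDL, A/J sham, B6 CBDL, B6 sham. Of all neighbours in these orders, only the 2 B6 groups of Adgre1 and the 2 CBDL groups of Csf1r did not overlap.

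Beyond the 5 neutrophil markers, 21 further neutrophil genes were measured. In A/J mice 2 rose after CBDL and 19 were not called (median difference -0.0017), where 0.818% of all probe sets were called. In B6 mice 1 rose and 20 were not called (median 0.04), where 0.0534% of all probe sets were called. Over both strains 2 rose, 1 fell and 18 were not called, where 1.74% of all probe sets were called. Lcn2, which encodes the iron-siderophore-binding protein lipocalin-2 of neutrophil granules and of injured epithelium and liver, had 9.13, 7.23 and 8.93 in A/J CBDL and 5.35, 4.97 and 5.13 in A/J sham. In B6 mice it had 8.77, 7.81 and 8.14 in CBDL, against 5.31, 5.21 and 5.15 in sham. Lcn2 rose by 3.28 after CBDL in the A/J strain (adjusted p = 0.00678, standard error 0.41) and by 3.02 in the B6 strain (adjusted p = 0.0499, standard error 0.41), a B6 call that ended in 13 of 20 alternatives. Over both strains Lcn2 was called in 19 of 19 alternatives, with a rise of 2.97 to 3.45 (limma, adjusted p at most 0.00478).

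Retnlg, a resistin-like gene of mouse neutrophils, had 5.39, 5.31 and 5.65 in A/J CBDL, against 4.49, 4.36 and 4.69 in A/J sham. Its A/J rise was 0.94 (adjusted p = 0.0123, standard error 0.14, and not called without A/J sham replicate 2 or with only the 6 A/J arrays in the fit). The B6 values were 4.54, 4.28 and 4.14 in CBDL and 4.06, 4.34 and 4.32 in sham. After CBDL Retnlg was higher in A/J than in B6 mice by 1.13 (adjusted p = 0.00271), but the interaction, 0.85, had an adjusted p of 0.420. Mmp9, the gelatinase of the tertiary granules, fell by 0.42 over both strains (adjusted p = 0.0266, not called without any 1 of 8 arrays) and had a difference of -0.78 between A/J sham and B6 sham (adjusted p = 0.00582). The surface marker Ly6g averaged 3.08 in A/J CBDL, 3.13 in A/J sham, 3.44 in B6 CBDL and 3.22 in B6 sham and was not called.

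Of 23 further macrophage and monocyte genes, 0 were called in A/J mice (4 at an unadjusted p under 0.05) and 0 in B6 mice (7 at an unadjusted p under 0.05, 6 of them lower). Of all probe sets, 14.2% reached that threshold in A/J mice and 7.64% in B6 mice, and 1.74% were called over both strains. The median difference of the 23 genes was -0.05 in A/J and -0.14 in B6 mice, where 19 of 23 were negative. Over both strains 1 gene fell, Ms4a7, a tetraspan membrane gene of resident macrophages, by 0.63 (standard error 0.11, adjusted p = 0.0178). It had 4.58, 4.73 and 5.03 in A/J CBDL, against 5.03, 4.81 and 5.42 in A/J sham, and 4.76, 4.58 and 4.66 in B6 CBDL, against 5.70, 5.56 and 5.59 in B6 sham. The call ended without A/J CBDL replicate 2, B6 CBDL replicate 3 or B6 sham replicate 1. In A/J mice the uncalled differences with the largest size were those of Cd14, the lipopolysaccharide co-receptor (0.84, adjusted p = 0.220), and Mertk, a receptor for the clearance of dying cells (0.71, adjusted p = 0.165). Cd14 had 6.50, 5.30 and 5.41 in A/J CBDL, against 5.11, 4.78 and 4.79 in A/J sham, and without A/J CBDL replicate 1 its difference was 0.46 (adjusted p = 0.362). Mertk had 10.70, 10.41 and 10.22 in A/J CBDL, against 9.26, 9.78 and 10.17 in A/J sham. Its difference was 0.47 without A/J sham replicate 1 (adjusted p = 0.282) and 0.92, and called, without A/J sham replicate 3 (adjusted p = 0.0467).

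Some of the plasma proteins that bind or inhibit the marker products had genes that rose in A/J mice. The share of all probe sets called after CBDL was 0.818% in A/J and 0.0534% in B6 mice (7.64% in B6 mice at the unadjusted threshold). Of 11 measured ligands, receptors and inhibitors of the marker products, 5 were called in A/J mice after CBDL, all higher, and 0 in B6 mice (4 at an unadjusted p under 0.05). Besides Hp they were Serpina1c, an alpha-1-antitrypsin gene whose product blocks elastase (4.92, adjusted p = 0.00396), Cp, whose product ceruloplasmin binds myeloperoxidase (3.47, adjusted p = 0.000538), Serpina3n (2.89, adjusted p = 0.0441) and Serpina1d (2.59, adjusted p = 0.0497). Serpina1c and Serpina1d are near-identical paralogs and so uncertain singly, and the Serpina3n and Serpina1d calls each ended in 13 of 20 alternatives. Other inhibitors of the list were not called there, as Serpinb1a averaged 11.07 after CBDL, against 11.10 after sham, A2m 4.13 after CBDL, against 4.23 after sham, and Slpi 6.96 after CBDL, against 6.46 after sham. The 5 called encode plasma proteins of hepatocytes, of whose genes 11 of 13 rose in A/J mice, and the part of hepatocyte RNA in them was not tested.

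Among 18 growth factors and chemoattractants 0 were called in A/J mice (1 at an unadjusted p under 0.05) and 0 in B6 mice (0 at an unadjusted p under 0.05). Of all probe sets, 14.2% reached that threshold in A/J mice and 7.64% in B6 mice. On A/J CBDL replicate 1, 8 of the 18 genes had their highest signal of the 12 arrays, against 7.84% of all genes. The neutrophil chemoattractant Cxcl5 was 5.92 there and 3.34 to 3.66 on the other arrays, and Cxcl2 was 4.41 there and 3.12 to 3.44 elsewhere. The monocyte chemoattractant Ccl2 was 5.86 against at most 4.32 and Il6 was 3.46 against at most 2.60. Of the 18 genes, 3 were highest on A/J sham replicate 1, 3 on A/J CBDL replicate 3 and 2 on A/J sham replicate 3. Of all genes, 18.0%, 4.63% and 7.31% were highest on those arrays. Ccl2 and Il6, like Cxcr2 and Il1b, were picked after their values were seen.

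S100a8 and Cd163 had their highest values on A/J CBDL replicate 1, at 4.58 and 6.18. So did 6 of the 21 further neutrophil genes, among them the chemokine receptor gene Cxcr2 (3.88) and the cytokine gene Il1b (6.18). Another 6 of the 21 had theirs on A/J sham replicate 1, where 18.0% of all genes were highest. S100a9, Mpo, Elane and Csf3r were not highest on A/J CBDL replicate 1, and Mpo was highest on A/J sham replicate 1. The correlation of S100a8 with Cd163 after removal of group means was 0.75 over 12 arrays, and 0.27 without A/J CBDL replicate 1. Cxcl1 averaged 6.34 in A/J CBDL, 6.06 in A/J sham, 6.01 in B6 CBDL and 6.04 in B6 sham and was not called.

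**Figure D5:**
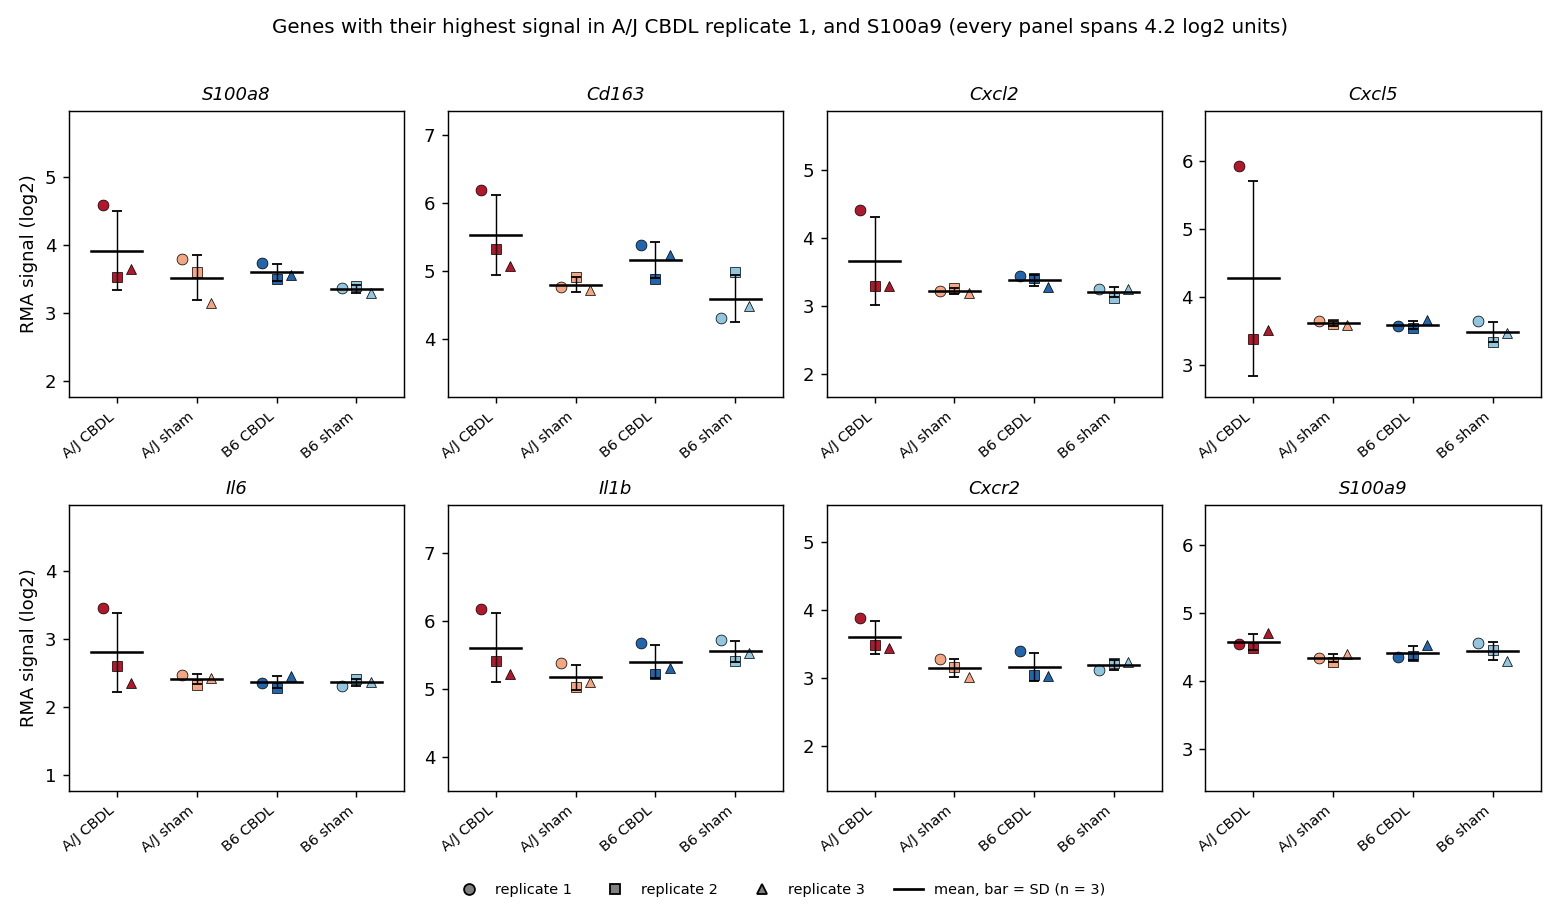
Log2 signal of S100a8, Cd163, Cxcl2, Cxcl5, Il6, Il1b, Cxcr2 and, for contrast, S100a9 on the 12 arrays; symbols give the replicate, lines the mean and bars the SD (n = 3). Apart from S100a9, each gene has its highest value on A/J CBDL replicate 1, such as 5.92 for Cxcl5.

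In the average over both strains, 2 genes of cytotoxic lymphocytes fell. Of the 12 T and NK cell genes 2 fell, Gzmb, the cytotoxic protease granzyme B, by 0.78 (standard error 0.13, adjusted p = 0.0146), and Nkg7, a cytotoxic granule protein gene, by 0.53 (standard error 0.09, adjusted p = 0.0181), of which Nkg7 was not called without A/J CBDL replicate 2, A/J sham replicate 2 or B6 CBDL replicate 3. Of the 8 enterocyte genes 1 fell, Lct, the lactase of the brush border, by 0.47 (standard error 0.09, adjusted p = 0.0303, not called without any 1 of 8 arrays). By limma 0 were called of 8 dendritic cell genes (3 at an unadjusted p under 0.05), 8 adhesion molecules (2), 7 B and plasma cell genes (2), 6 Paneth cell genes (2), 5 mast cell genes (0), 5 eosinophil genes (0) and 2 red cell genes (0). In this average 1.74% of all probe sets were called and 14.1% reached the unadjusted threshold. The dendritic cell genes had a median difference of -0.26 and the mast cell genes one of -0.20. By strain, 0 of the 12 T and NK cell genes were called. In A/J mice 5 of the 12 had a positive difference (median -0.09), and in B6 mice 0 did (median -0.62). Gzmb averaged 6.59 after CBDL and 7.17 after sham in A/J mice, and 7.12 and 8.10 in B6 mice. Nkg7 averaged 6.87 after CBDL and 7.12 after sham in A/J mice, and 6.54 and 7.35 in B6 mice.

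Over the 12 arrays and 19928 other genes, the mean of the 5 neutrophil markers was followed most closely by Lrrc72 (r = 0.93), Cxcl1 (0.92) and Olfr1143 (0.91). The mean of the 5 macrophage markers was followed by Ets1 (0.91), a lymphoid transcription factor gene, Il1rn (0.88), the interleukin-1 receptor antagonist, and Ms4a4a (0.87). These are the highest of many values and are given as a description.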

How the data were processed

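The authors deposited log2 signals of 12 Affymetrix Mouse Gene ST arrays, which per the labels came from RMA as run by Affymetrix Expression Console (version not given in the sources used here, whereas the study's methods name GCRMA). Precision is limited by the 3 arrays per group. Gene names came from the platform table, in which 21789 of 35556 probe sets have 1 symbol, 1621 several and 12146 none; a gene was read from its brightest probe set with 1 symbol. limma 3.58.1 in R 4.3.3 fitted 1 mean per group to all 12 arrays, with empirical Bayes variances, for 6 comparisons with Benjamini-Hochberg adjustment over all probe sets.

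All 10 markers are named in the text. From 16 other lists the called genes with the largest change are named, or up to 2 at an unadjusted p under 0.05, beside a few ligands and paralogs; Ly6g, Hmox1, Clec4f, Timd4, Marco, Ccl2, Il6, Il1b and Cxcr2 were added after their values were seen. Of 190 listed genes 170 had a single-symbol probe set. The markers and lists were chosen with earlier results of these data known. Alternatives were other samples in the fit, probe set filters, normalizations, priors, weights, a replicate block and each array left out (for Cd14 and Mertk added after seeing the data). The fit was tested on simulated data, with changes placed only in probe sets brighter than the median. The neutrophil markers and Cd163 lie below that median, so recovery of changes in them was not tested. Promoters came from RefSeq (GRCm38.p6).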

Additional observations from a re-analysis of the deposited data

How the results depend on the processing

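None of the 236 counts of called markers under the alternatives was above 0. With the replicate number as a block, 0 neutrophil and 0 macrophage markers were called in each comparison, while Vsig4 and Nkg7 over both strains, Lcn2 in B6 mice and Serpina3n and Serpina1d in A/J mice were no longer called. The numbers were not taken as pairs, because deviations of same-numbered arrays correlated between -0.31 and 0.36. The lowest adjusted p of any marker under an alternative was 0.0520, for Cd163 over both strains among probe sets with 1 symbol (range 0.0520 to 0.269). Each marker has 1 probe set, so its mean over probe sets equals the value given. Over all probe sets the A/J count of 291 ranged from 90 to 1299 and the B6 count of 19 from 1 to 167, so the backgrounds move with the settings. The sham count of 665 ranged from 271 to 3044, the CBDL count of 634 from 290 to 1261, the interaction count of 13 from 0 to 28 and the count of 617 over both strains from 269 to 1510.

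Of 1168 marker differences under alternatives, none was called and 54 turned sign. In all but 1 of these the value reported lay less than 1 standard error from 0, and the cause was not tested. The exception was S100a8 in A/J against B6 CBDL, 0.32 with all arrays. The lowest and highest log2 differences with 1 array left out follow for each marker that turned. For CBDL in A/J mice they ran -0.26 to 0.15 in Adgre1, -0.34 to 0.17 in Cd68, -0.23 to 0.15 in Lyz2, -0.13 to 0.028 in Elane and -0.040 to 0.22 in Csf3r. For CBDL in B6 mice they ran -0.090 to 0.042 in S100a9, -0.10 to 0.017 in Lyz2, -0.15 to 0.024 in Mpo, -0.058 to 0.20 in Elane and -0.0075 to 0.14 in Csf3r. For A/J against B6 sham they ran -0.060 to 0.20 in Elane and -0.19 to 0.33 in Cd68. For A/J against B6 CBDL they ran -0.011 to 0.52 in S100a8 and -0.25 to 0.039 in Adgre1. For the interaction they ran -0.17 to 0.35 in S100a8, -0.18 to 0.38 in Cd163, -0.19 to 0.19 in Lyz2, -0.090 to 0.17 in Csf3r, -0.20 to 0.21 in Csf1r, -0.33 to 0.054 in Mpo and -0.11 to 0.40 in Cd68. For CBDL over both strains they ran -0.14 to 0.051 in Lyz2 and -0.066 to 0.063 in Elane. With array weights the turned values were 0.045 in Adgre1 for CBDL in A/J mice, 0.083 in Lyz2 for CBDL in A/J mice, -0.040 in Csf3r for A/J against B6 sham, 0.011 in Adgre1 for A/J against B6 CBDL, 0.090 in Lyz2 for the interaction, -0.12 in Cd163 for the interaction, 0.040 in Elane for CBDL over both strains and 0.038 in Lyz2 for CBDL over both strains. With quantile normalization the turned values were 0.00089 in S100a9 for CBDL in B6 mice and -0.00034 in Csf3r for the interaction. With array medians subtracted the turned values were -0.014 in Csf3r for the interaction and -0.049 in Csf1r for the interaction. Dim signal limits the neutrophil markers, 2 of which lie among the dimmest 30% of probe sets.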
